A study of Junco hyemalis with 48 samples.

Results

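Regrowing tail feathers of dark-eyed juncos (Junco hyemalis), songbirds with white outer and dark inner tail feathers, were compared between feathers that had been frozen whole and feathers that had been cut into parts before freezing. The comparison took all 48 of the 48 libraries of the series, chosen by the position and pigmentation in the labels, and colour was balanced on its 2 sides. Counts of the left and right feather were summed within each bird and group, which gave 26 profiles from 7 birds, called A to G here.

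The whole feathers comprised 2 groups. R2 is the second rectrix, pigmented throughout, with 11 libraries from 6 birds. R6 is the sixth rectrix, apigmented throughout, with 13 libraries from 7 birds. The dissected parts comprised the pigmented part of the fourth rectrix (R4), with 13 libraries from 7 birds, and its apigmented part, with 11 libraries from 6 birds. All 4 groups were regrown feathers, collected 14 days after plucking, and the labels name no treatment, strain, sex or age. No R4 apigmented library of bird C and no R2 library of bird E was analysed here, so 5 birds (A, B, D, F and G) had all 4 groups. All profiles of bird E and the R2 profile of bird F held the left feather alone, with no right library to sum. Only R4 was dissected, and therefore dissection and feather position cannot be told apart here. The labels' growth protocol speaks of 6 birds, but the series text and the animal identifiers give 7.

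A growing feather is a tube in which the epidermis of the follicle folds into barb ridges around a core of vascular dermal pulp. Cells multiply near the base and mature towards the tip, so that position along the growing feather is also a position in developmental time. Melanocytes near the base pass melanin to the keratinocytes of the barb ridges, and a feather or a region without this transfer grows white.

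RNA was measured as counts of sequencing reads per gene model. Library totals ran from 14.8 to 41.6 M counts in whole feathers (median 21.4 M) and from 13 to 53.5 M in dissected parts (median 19.7 M). Of 20808 gene models, 15844 were tested, and the median tested gene model had 581 counts per profile. The deposited table does not pair its identifiers, a letter g and a number, with gene names. No function is therefore given to any gene model, and the labelled tissue was not checked against markers of any cell type. In whole pieces of tissue, fewer cells of a type and less RNA per cell cannot be told apart.

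With colours averaged, the called gene models were nearly all in 1 direction. In whole feathers 59 gene models were higher than in the dissected parts and 5 were lower, at an adjusted p below 0.05 in edgeR's quasi-likelihood test with Benjamini-Hochberg adjustment. Together these 64 were 0.404% of the 15844 tested, 0.372% for the higher and 0.0316% for the lower gene models. Counts by sign showed no such imbalance, since 48.4% of all tested gene models had a fold above 0. At an unadjusted p below 0.05 in the same test, 760 were higher and 748 lower. Among large folds the imbalance was not confined to the calls. Above a doubling (log2 fold over 1) stood 37 gene models, of which 19 were called. Below a halving stood 3. In a fit without the bird as a replicate block, 17 gene models (0.107%) were called, all of them higher in whole feathers. DESeq2 called 145 (0.915%), of which 112 were higher, and limma-voom with a weight per profile called 421 (2.66%), of which 312 were higher.

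The 59 higher gene models had log2 folds of 0.18 to 2.26, with a median of 0.80, and mean levels of 0.62 to 1230 CPM (counts scaled to a common library total), with a median of 14.4 CPM. The 5 lower ones had small folds, of -0.35 to -0.14 with a median of -0.21, and mean levels of 7.38 to 274 CPM. Calls were spread over the range of expression. Of 2717 gene models with a mean below 1 CPM, 2 were called higher and 0 lower. From 1 to 10 CPM, 18 of 4284 were higher and 1 was lower. From 10 to 100 CPM, 32 of 6794 were higher and 2 were lower. At 100 CPM and above, 7 of 2049 were higher and 2 were lower. Called gene models thus made up 0.0736% of the lowest band and 0.439% to 0.5% of the others. The last gene model inside the threshold had an adjusted p of 0.0467 in edgeR and a log2 fold of -0.14 (SE 0.03), and the first outside it had an adjusted p of 0.0547 and a log2 fold of 0.19 (SE 0.04).

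**Figure D1:**
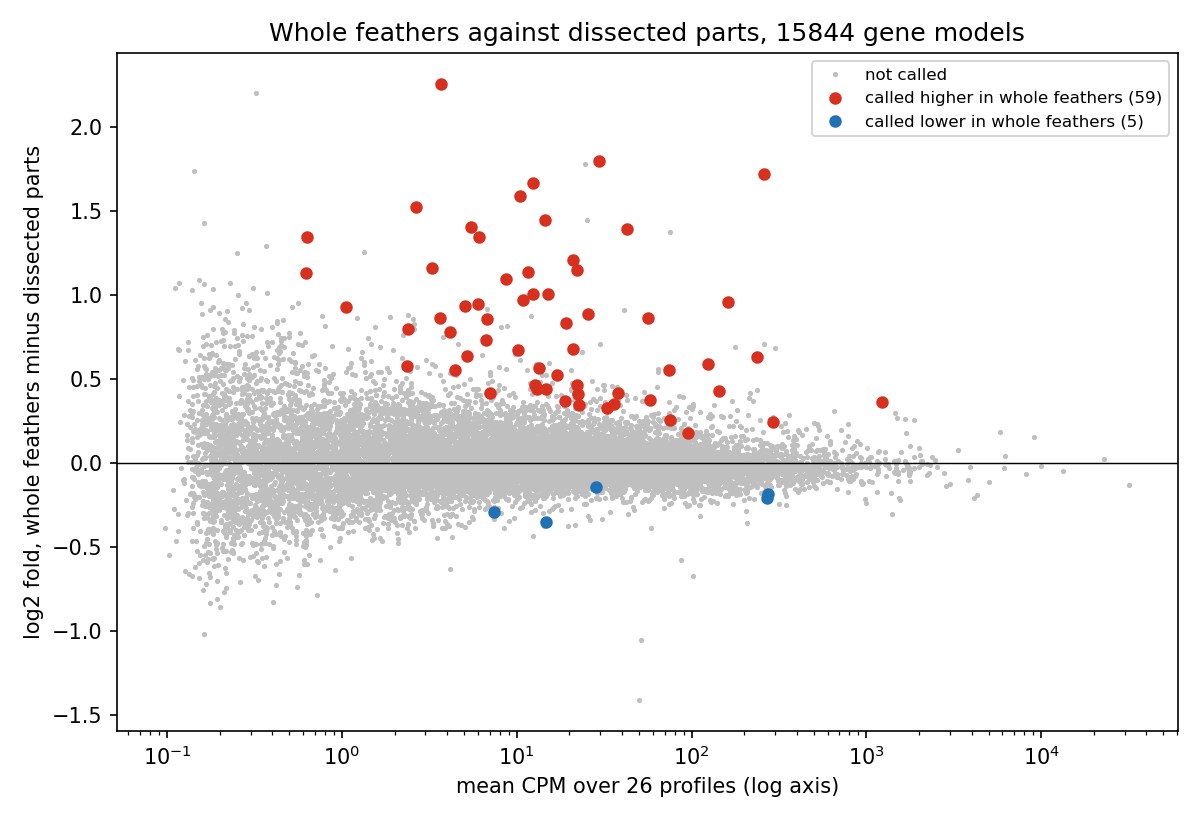
Log2 fold of whole feathers over dissected parts (vertical axis) against mean CPM over the 26 profiles (horizontal log axis), 1 point per tested gene model (n = 15844), with called gene models marked. The 59 higher calls spread over the range of levels and reach a log2 fold of 2.26, whereas the 5 lower calls stay close to 0.

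Gene models g16721, g1956, g5075 and g13199 were taken for closer description, the 2 called with the largest log2 fold in each direction among those with a mean of at least 1 CPM, the same direction in all 5 birds with 4 groups and the same direction in both colours. Of the called gene models, 56 higher and 4 lower ones met these conditions. The rule thus fixed the agreement of direction over these 5 birds and both colours, which describes the chosen gene models and tests nothing. The level of g16721 in whole feathers was 5.28 to 8.47 CPM in R2, with a median of 6.16 CPM, and 4.35 to 7.74 CPM in R6, with a median of 5.27 CPM. In the dissected parts it was 0.408 to 5.83 CPM in the R4 pigmented part, with a median of 0.804 CPM, and 0.304 to 1.97 CPM in the R4 apigmented part, with a median of 0.906 CPM. Every whole feather lay above every dissected part except the R4 pigmented part of bird C, which at 5.83 CPM lay among the whole feathers, beside 6.15 CPM in the R2 and 5.27 CPM in the R6 of the same bird. The next highest R4 pigmented part had 2.96 CPM. Means were 6.44 ± 1.13 CPM in R2 (SD, n = 6), 5.44 ± 1.19 CPM in R6 (SD, n = 7), 1.86 ± 1.97 CPM in the R4 pigmented part (SD, n = 7) and 1.03 ± 0.675 CPM in the R4 apigmented part (SD, n = 6).

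The log2 fold of g16721 was 2.26 (SE 0.30, adjusted p = 0.000711 in edgeR), at counts of 14 to 455 per profile. All 5 birds with 4 groups shared the direction, as the rule that chose this gene model required. The whole feathers exceeded the dissected parts by 2.71 on the log2 CPM scale in bird A, 3.45 in B, 3.23 in D, 1.93 in F and 1.72 in G. By RNA extraction batch this was 3.08 in batch 1 (A and B), 3.23 in batch 2 (D) and 1.82 in batch 3 (F and G). The same direction in both colours was required too. Between R2 and the R4 pigmented part the log2 fold was 2.08 (SE 0.42, adjusted p = 0.0653 in edgeR). Between R6 and the R4 apigmented part it was 2.44 (SE 0.44, adjusted p = 0.0139 in edgeR). The second of these exceeded the first by 0.36 (SE 0.60, adjusted p = 0.880 in edgeR), which did not pass the test. Between the whole feathers, R2 exceeded R6 by 0.24 on the log2 scale (adjusted p = 0.989 in edgeR).

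In g1956 the differences between birds were wide. Its level was 12.8 to 175 CPM in R2, with a median of 19.7 CPM, and 6.37 to 96.1 CPM in R6, with a median of 16.5 CPM. In the R4 pigmented part it was 0.544 to 57.3 CPM, with a median of 8.91 CPM, and in the R4 apigmented part 0.854 to 75.2 CPM, with a median of 7.22 CPM. The groups overlapped. Bird A was the highest in every group, far above the other birds in R2 and both R4 parts, while in R6 its 96.1 CPM lay beside 92.4 CPM in bird F. Within each of the 5 birds the whole feathers were higher, as the rule required. The difference was 0.98 in A, 1.23 in B, 3.75 in D, 2.71 in F and 1.48 in G on the log2 CPM scale. By batch it was 1.11, 3.75 and 2.10 in batches 1, 2 and 3. Means were 49.0 ± 63.5 CPM in R2 (SD, n = 6) and 37.4 ± 39.3 CPM in R6 (SD, n = 7), against 13.8 ± 19.8 CPM in the R4 pigmented part (SD, n = 7) and 18.5 ± 28.3 CPM in the R4 apigmented part (SD, n = 6). The log2 fold was 1.80 (SE 0.36, adjusted p = 0.0310 in edgeR), with 2.00 (SE 0.51, adjusted p = 0.223) in the dark pair and 1.6 (SE 0.53, adjusted p = 0.200) in the white pair. When birds were left out in turn the call held without C or F and was lost without each of the others, with adjusted p-values of 0.0238 to 0.160 in edgeR and folds of 1.51 to 2.00, and it was also lost without the bird block (adjusted p = 0.962).

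Among the lower gene models, g5075 had 4.86 to 8.81 CPM in R2, with a median of 6.45 CPM, and 5.67 to 9.09 CPM in R6, with a median of 6.72 CPM. In the R4 pigmented part it had 6.22 to 10.5 CPM, with a median of 6.88 CPM, and in the R4 apigmented part 6.99 to 10.2 CPM, with a median of 7.77 CPM. The groups overlapped broadly. Within the 5 birds with all groups, whole minus dissected was -0.56 to -0.20 on the log2 CPM scale, with the shared sign that the rule required. By batch it was -0.23, -0.32 and -0.42 in batches 1, 2 and 3. Means were 6.65 ± 1.59 CPM in R2 (SD, n = 6) and 6.90 ± 1.22 CPM in R6 (SD, n = 7), against 7.83 ± 1.68 CPM in the R4 pigmented part (SD, n = 7) and 8.17 ± 1.25 CPM in the R4 apigmented part (SD, n = 6). Its log2 fold was -0.29 (SE 0.06, adjusted p = 0.0360 in edgeR). The call was lost in 6 of 7 fits that left out a bird, with folds of -0.32 to -0.23 and adjusted p-values of 0.0365 to 0.196 in edgeR, and held without bird E.

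The level of g13199 was 222 to 261 CPM in R2, with a median of 252 CPM, and 241 to 272 CPM in R6, also with a median of 252 CPM. In the R4 pigmented part it was 235 to 303 CPM, with a median of 269 CPM, and in the R4 apigmented part 255 to 365 CPM, with a median of 318 CPM. In all birds with an R4 apigmented part except F, this part lay above every whole feather, whereas the R4 pigmented parts overlapped with the whole feathers. Its mean was 247 ± 14.8 CPM in R2 (SD, n = 6) and 256 ± 11.8 CPM in R6 (SD, n = 7), against 271 ± 25.4 CPM in the R4 pigmented part (SD, n = 7) and 314 ± 35.8 CPM in the R4 apigmented part (SD, n = 6). Its log2 fold was -0.21 (SE 0.05, adjusted p = 0.0462 in edgeR), with -0.12 (SE 0.07, adjusted p = 0.909) in the dark pair and -0.30 (SE 0.06, adjusted p = 0.0389) in the white pair. Per bird the difference ran from -0.32 in A to -0.08 in F, and by batch it was -0.28, -0.19 and -0.13 on the log2 CPM scale. The call was lost in 6 of 7 fits that left out a bird, with folds of -0.24 to -0.19 and adjusted p-values of 0.0411 to 0.221 in edgeR, and held without bird F.

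**Figure D2:**
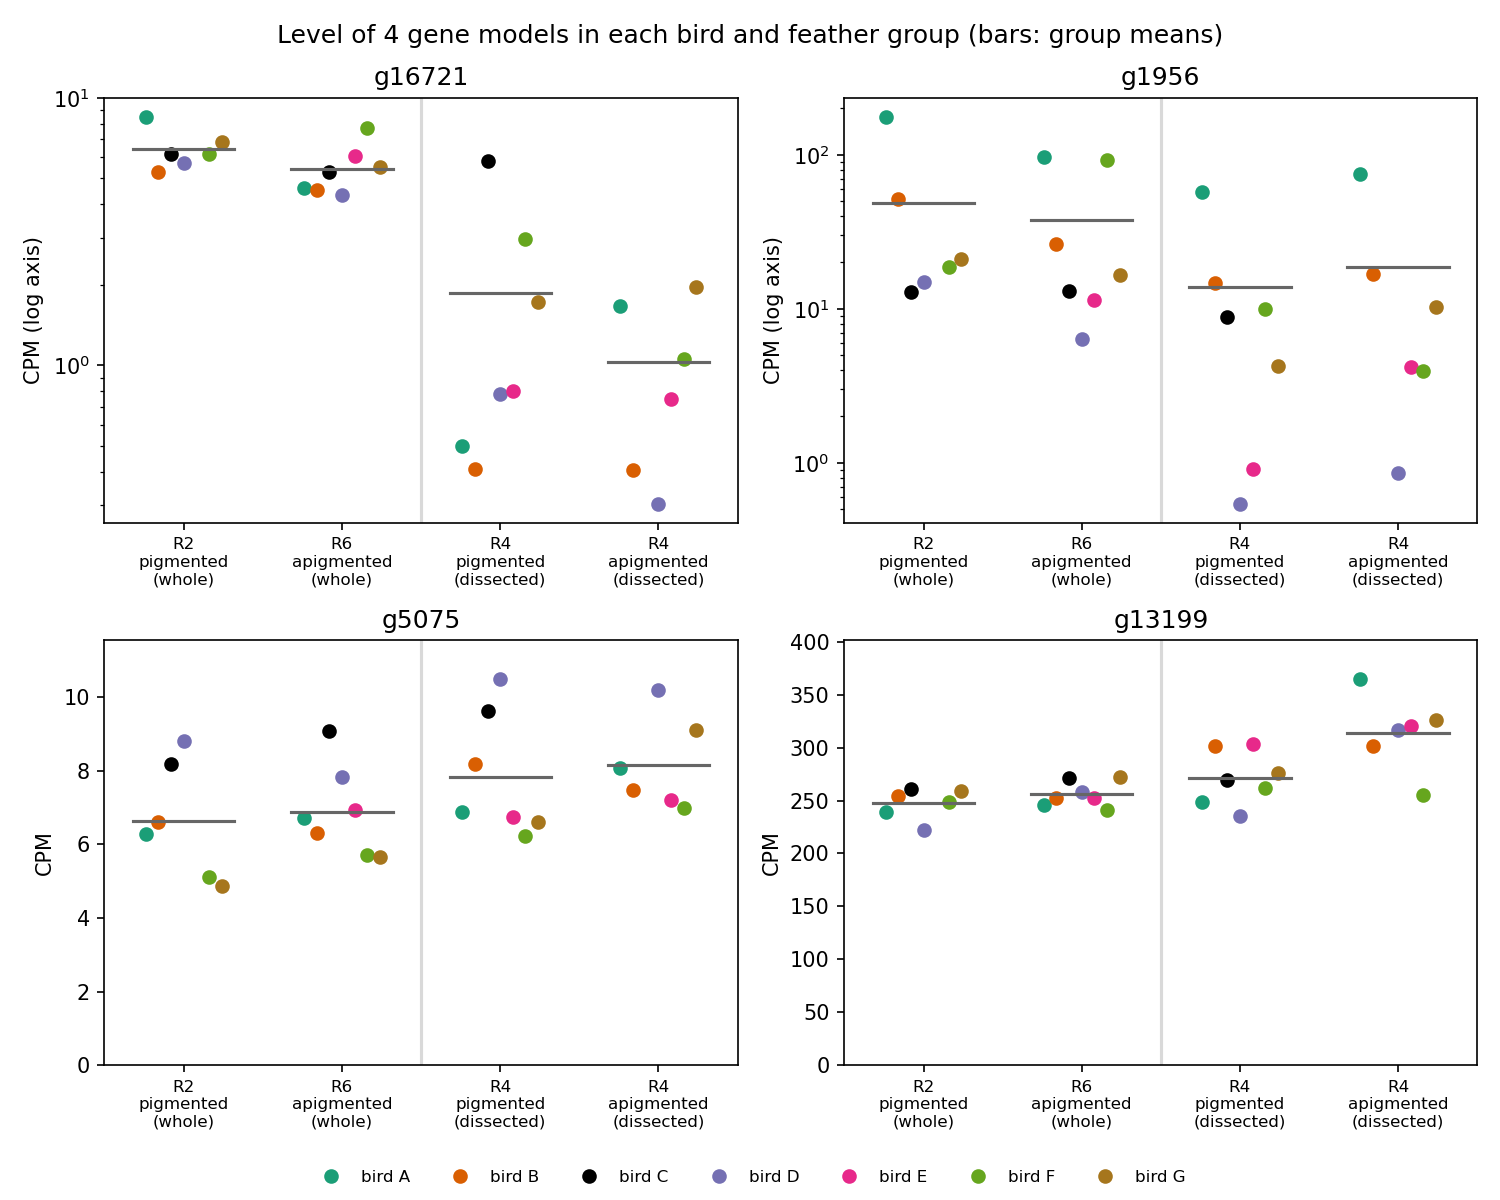
CPM of g16721, g1956, g5075 and g13199 in each profile, by group, with whole feathers left of dissected parts and bars for the group mean (n = 6 or 7 birds a group). The axis is logarithmic for g16721 and g1956 and linear for g5075 and g13199. For g16721 a single dissected part, the R4 pigmented part of bird C at 5.83 CPM, lies among the whole feathers. For the other gene models the groups overlap.

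The higher set stood above the dissected parts in whole feathers of both colours. Its median log2 fold was 0.79 in the white pair, R6 over the R4 apigmented part, and 0.65 in the dark pair, R2 over the R4 pigmented part, and all 59 gene models were above 0 in both. These folds enter the averaged contrast that chose the set, so they describe it and do not test it. Of the 59, 58 (98.3%) were higher in all 4 pairings of a whole feather with a dissected part, where 34.3% of all tested gene models had a common direction in either sense. The colour differences of the same gene models had a median log2 fold of 0.01 for R2 over R6. For the R4 pigmented over the R4 apigmented part it was 0.13, a lean towards the pigmented part. Their median size, leaving out the sign, was 0.14 between whole feathers and 0.17 between the R4 parts, against 0.08 and 0.11 over all tested gene models. For 57 of the 59 the fold of R2 over R6 was smaller in size than the fold between whole and dissected tissue, as it was for 7143 of all 15844. The fold between whole and dissected tissue chose the 59, so this count too is a description and not a test.

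The test of the difference between the pairs asked whether whole feathers differed from dissected parts unequally in white and dark tissue. In edgeR it called 21 of 15844 gene models (0.133%). Keeping the sign of the fold, 15 had the larger fold in the white pair (0.0947%) and 6 the smaller (0.0379%). None of these 21 belonged to the 59 higher or the 5 lower gene models. Lists that hold such small shares of the table would hardly overlap by chance, so this absence is no result. At an unadjusted p below 0.05, 7 of the 59 (11.9%) and 1 of the 5 differed between the pairs, near the 1394 of 15844 (8.8%) over all tested gene models. Leaving out the sign, the fold was larger in size in the white pair for 45 of the 59 (76.3%) and for 9785 of all 15844 (61.8%). The count of 21 rested on single birds and profiles, since it became 218 when the R4 pigmented profile of bird B was left out, 291 with all of bird B left out, 2 with bird G left out and 3 in a fit without the bird block. The balance of 15 and 6 rested on bird B as well. With that bird left out, 145 had the larger and 146 the smaller signed fold in the white pair. With its R4 pigmented profile left out, these were 116 and 102.

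**Figure D3:**
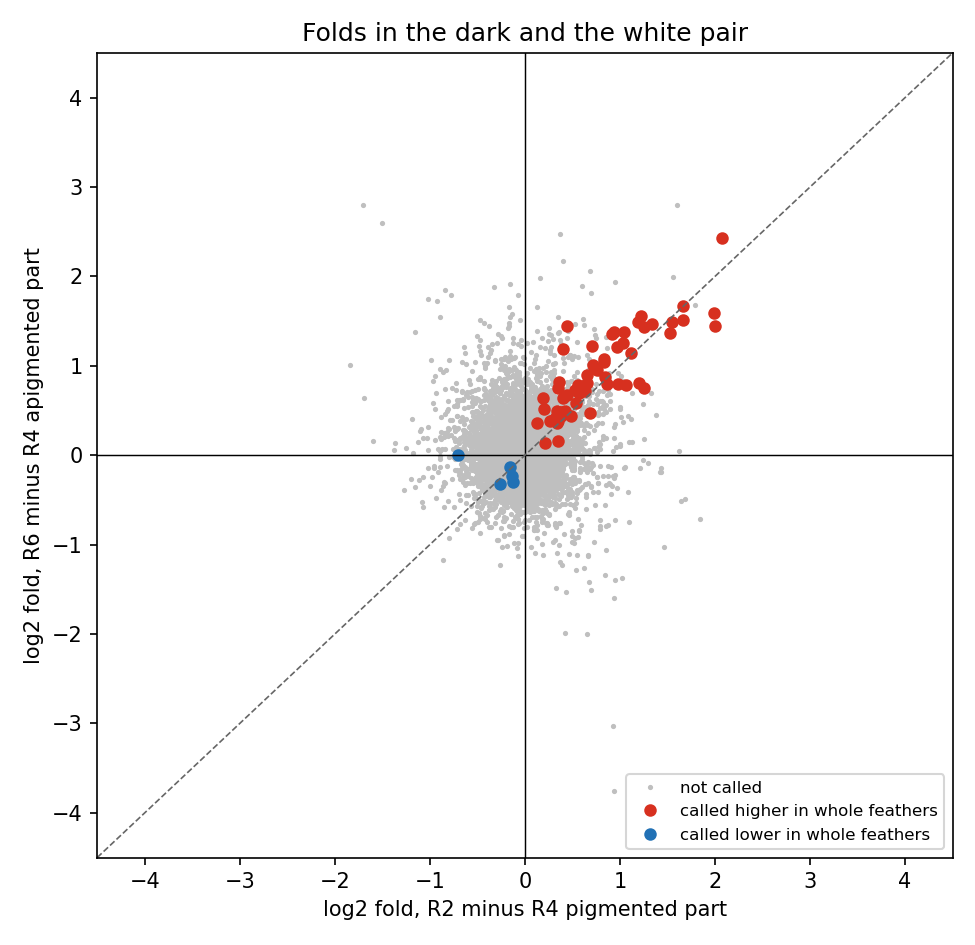
Log2 fold of R6 over the R4 apigmented part (white pair) against log2 fold of R2 over the R4 pigmented part (dark pair), 1 point per tested gene model, with called gene models of the averaged contrast marked. All 59 higher calls have positive folds in both pairs, with medians of 0.79 and 0.65, and 4 of the 5 lower calls have negative folds in both.

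Each pair was also fitted on its own libraries, so that a list chosen in 1 colour could be read in libraries of the other. The dark pair alone called 0 gene models in edgeR, with 856 at an unadjusted p below 0.05, and the white pair alone called 22 (0.143%), with 2315 at that p. Of the 100 gene models with the smallest p and a higher level in R2 than in the R4 pigmented part, 97 could be read in the white pair, where 69 (71.1%) were higher in R6, against 49.4% of all gene models. The median log2 fold was 0.17. In the other sense, 64 of 96 (66.7%) chosen in the white pair were higher in R2, against 51.3%, with a median of 0.25. Gene models chosen as lower carried no common direction over, with 41 of 100 lower in the white pair and 47 of 100 lower in the dark pair, against 50.6% and 48.7% of all gene models. Both pairs came from the same birds.

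Left and right feathers gave a reading in separate libraries of the same birds. Left feathers alone called 43 gene models (0.295%), all higher in whole feathers, and all 43 were higher in the right feathers too, with a median log2 fold of 0.74, against 44.8% of all tested gene models. Right feathers alone called 18 (0.121%), all higher, and all 18 were higher in the left feathers, with a median of 1.16, against 47.4% of all tested gene models.

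A score for the higher set, the mean log2 CPM of its 59 gene models, shows how the birds differed. It averaged 4.27 ± 0.21 in R2 (SD, n = 6) and 4.26 ± 0.23 in R6 (SD, n = 7), against 3.43 ± 0.43 in the R4 pigmented part (SD, n = 7) and 3.34 ± 0.31 in the R4 apigmented part (SD, n = 6). The 59 gene models together held 4008 ± 416 CPM in R2 and 4175 ± 573 CPM in R6, against 2873 ± 610 CPM in the R4 pigmented part and 2640 ± 394 CPM in the R4 apigmented part, with the same n. Whole feathers exceeded dissected parts in the score by 0.78 in bird A and 0.97 in B (batch 1), 1.13 in D (batch 2), and 0.74 in F and 1.00 in G (batch 3). The 5 birds therefore lay close together, and each batch held the difference. These birds chose the set, and their values are a description. For the 5 lower gene models the score of whole feathers was below that of dissected parts in the same 5 birds, with differences of -0.32 to -0.18.

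The pairs within birds were less even. In the dark pair, R2 exceeded the R4 pigmented part by 0.99 in A, 0.80 in B, 0.10 in C, 1.12 in D, 0.42 in F and 1.07 in G. In the white pair, R6 exceeded the R4 apigmented part by 0.56 in A, 1.14 in B, 1.13 in D, 0.88 in E, 1.06 in F and 0.92 in G. The R6 and R4 apigmented libraries of bird E came from different RNA extraction batches, so its value cannot be told apart from batch. Bird C stood lowest, and its R4 pigmented part scored 3.88, next to 3.98 in its R2 and 4.10 in its R6. Its left and right R4 pigmented libraries scored 3.88 and 3.90. Bird C was also the bird with no R4 apigmented library analysed here, and the labels do not describe the dissection bird by bird, so the part of this in its values was not tested. Without this profile 67 gene models (0.424%) were called, 64 of them higher.

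**Figure D4:**
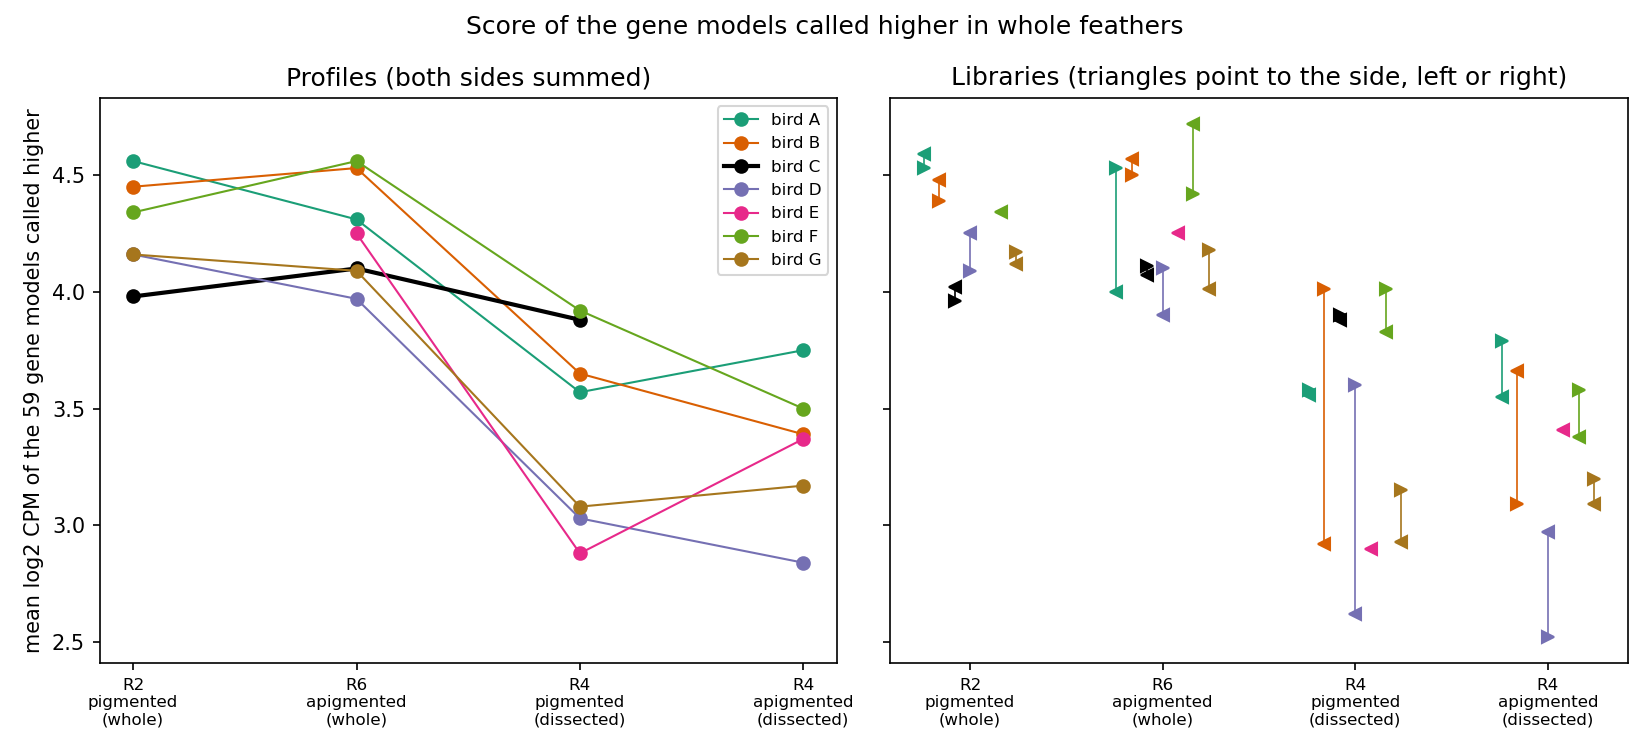
Mean log2 CPM of the 59 higher gene models by group, in profiles joined by bird (left panel) and in single libraries marked by side (right panel), with whole feathers left of dissected parts. Whole feathers average 4.27 and 4.26 against 3.43 and 3.34 in the dissected parts, and the line of bird C is the flattest, at 3.98 in R2 and 4.10 in R6 against 3.88 in the R4 pigmented part.

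Leaving out a bird, calling gene models in the other 6 and reading them in the bird left out used no library for both steps. Calls made up 0.27% of gene models without bird A, 0.29% without B or F, 0.409% with C left out, 0.204% with D, 0.351% with E and 0.258% with G left out. Of those called higher, 43 of 43 were higher in whole feathers of bird A, 42 of 43 in bird B, 32 of 32 in bird D, 43 of 45 in bird F and 35 of 41 in bird G, with median log2 CPM differences of 0.68, 0.83, 0.90, 0.69 and 1.04. Across all tested gene models the medians in these birds lay between -0.01 and 0.02. Birds C and E had 1 pair each. In the white pair of bird E, 52 of 54 were higher, with a median of 0.57, where 51.2% of all tested gene models were higher, with a median of 0.01. The libraries of this pair came from different RNA extraction batches, so dissection and batch cannot be told apart in bird E. In the dark pair of bird C, 38 of 61 were higher, with a median of 0.08, where 51.6% of all tested gene models were higher, with a median of 0.01. Bird C was thus the single bird in which the gene models called higher in the others were close to the level of all gene models. The lower calls were few, and most had the same direction in the bird left out. In the dark pair of bird C 4 of 4 were lower, with a median of -0.45, against 48.4% of all tested gene models. In the white pair of bird E 2 of 2 were lower, with a median of -0.06, against 48.5%. In bird B 2 of 3 were lower and in bird F 1 of 1, with 0 lower calls to read in A, D or G.

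**Figure D5:**
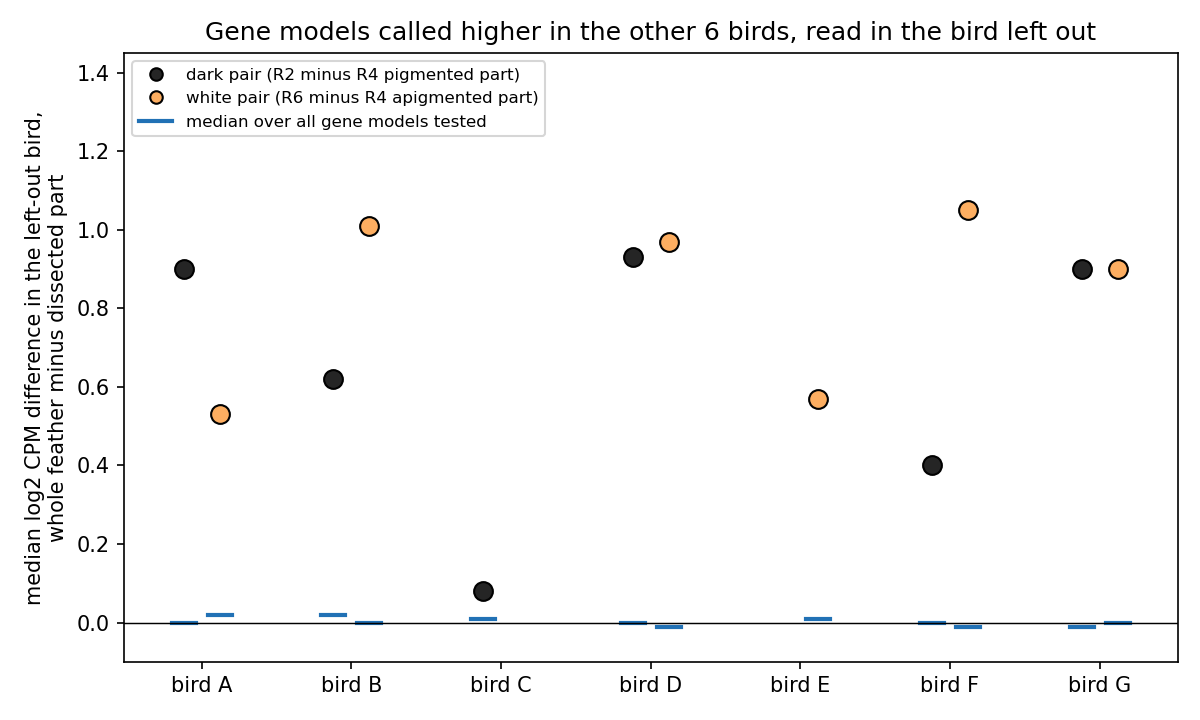
Median log2 CPM difference (whole feather minus dissected part) in the bird left out, over the gene models called higher in the other 6 birds, with 1 point per bird and colour pair and a line for the median of all tested gene models. The points of birds A, B, D, E, F and G lie at 0.40 or above, and the dark pair of bird C lies near its line, at 0.08. In bird E the whole feather and the dissected part came from different RNA extraction batches.

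Whether profiles of whole feathers and dissected parts overlapped was counted over all 26 profiles. Of the 59 higher gene models, 4 (6.78%) had every whole feather above every dissected part, and these were the only such gene models among all 15844 (0.0252%). Without the R4 pigmented profile of bird C there were 7 (11.9%), again all of those in the table (0.0442%). None of the 5 lower gene models separated the profiles in this way. In 58 of the 59 (98.3%) all 5 birds with 4 groups shared the direction, as did 14.4% of all tested gene models in either sense. The same profiles chose the 59, so these shares describe the set and do not test it.

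The dissected parts were the more variable side for the higher set. The median SD between birds, on the log2 CPM scale, was 0.33 in whole feathers and 0.52 in dissected parts, and it was larger in dissected parts for 55 of the 59 (93.2%). Over all tested gene models the medians were 0.23 and 0.29, and the SD was larger in dissected parts for 70.4%. The same profiles chose the 59 as lower in dissected parts, and all tested gene models were not matched for such a difference in level. The spread of the 59 is therefore a description and not a test. Left and right feathers of a bird differed in the score by 0.05 to 0.52 in whole feathers, with a median of 0.09 over 11 pairs. In dissected parts they differed by 0.02 to 1.09, with a median of 0.22 over 11 pairs. The largest gap was in the R4 pigmented part of bird B, with 2.92 on the left and 4.01 on the right, and the next was in that of bird D, with 2.62 and 3.60.

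Composition and spread of whole profiles were compared in 9 exact two-sided sign-flip permutation tests over birds. The smallest possible p is 0.125 with 4 birds, 0.0625 with 5 and 0.03125 with 6, so tests over 4 or 5 birds could not pass 0.05. After adjustment over the 9 tests none could fall below 0.05, even with every p at its smallest possible value. The tests therefore cannot decide on a difference, and the values here and in the next paragraph are descriptive. The 20 most abundant gene models were taken anew in each profile, so they could differ between profiles. They took 14.7% ± 0.693 of counts in R2 (SD, n = 6) and 14.9% ± 0.622 in R6 (SD, n = 7), against 13.6% ± 1.63 in the R4 pigmented part (SD, n = 7) and 17.2% ± 3.36 in the R4 apigmented part (SD, n = 6). Whole minus dissected was -0.559 percentage points (SD 1.27, n = 5, exact permutation p = 0.5, adjusted 0.5625). It was 1.08 in the dark pair (exact permutation p = 0.125, adjusted 0.352) and -2.19 in the white pair (exact permutation p = 0.156, adjusted 0.352). The mean differences of the colours had opposite signs. Bird A differed by -2.75 percentage points, and without it the average was -0.0123 and the white pair -1.

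The SD over gene models between a profile and the mean of the other birds in its group was 0.494 ± 0.0673 in R2 and 0.443 ± 0.0414 in R6, against 0.533 ± 0.137 in the R4 pigmented part and 0.539 ± 0.0898 in the R4 apigmented part (SD, n = 6 or 7 birds). Whole minus dissected was -0.0722 (SD 0.121, n = 5, exact permutation p = 0.3125, adjusted 0.469). It was -0.038 without bird A, -0.0322 without bird B, -0.0302 without the R4 pigmented profile of bird B and -0.116 without bird G. In the white pair it was -0.0960 and lower in R6 in 6 of 6 birds (exact permutation p = 0.03125, the smallest possible, adjusted 0.28125 over the 9 tests, which could not pass). Without bird A the white pair was at -0.0558. In the dark pair it was -0.0347 (exact permutation p = 0.78, adjusted 0.78), and 0.05 without bird B. The SD between the left and right feather of a bird was on average 0.493 in R2 and 0.455 in R6, against 0.572 in the R4 pigmented part and 0.561 in the R4 apigmented part. Whole minus dissected was -0.124 (SD 0.0920, n = 4, exact permutation p = 0.25, adjusted 0.45), with -0.112 in the dark pair (n = 5, exact permutation p = 0.4375) and -0.113 in the white pair (n = 5, exact permutation p = 0.125). The dark pair was at -0.0325 when bird B was left out, and the white pair at -0.0704 when bird A was left out.

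Several higher gene models had neighbouring identifier numbers. Of the 59, 15 (25.4%) had another of the 59 within 5 identifier numbers, against 380 of all 15844 tested gene models (2.4%) that had one of the 59 so near. They formed 5 runs, of 5, 4, 2, 2 and 2 gene models. The run of 5 spanned 8 tested gene models, of which 5 had a fold above 0. Its called members had log2 folds of 0.25 to 1.39 and mean levels of 42.6 to 1230 CPM. The run of 4 spanned 5 tested gene models, of which 4 had a fold above 0. Its called members had log2 folds of 1.41 to 1.67 and mean levels of 5.45 to 14.4 CPM. In both spans the gene models that were not called were thus not higher in whole feathers. The sources used here do not say whether the numbers follow the order of gene models in a genome. Near-identical or overlapping gene models could not be recognised, so members of a run may share reads and their values are uncertain. This grouping was noticed after the values had been seen, and no test was made of it.

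Colours were averaged on the log scale, which gives each colour equal weight in a ratio, and they were also averaged as linear CPM before the logarithm. Over all tested gene models the sign of the difference changed with this choice for 397 of 15844 (2.51%). For the 59 higher and the 5 lower gene models it changed for 0. The median of the 59 over the 5 birds with 4 groups was 0.73 with log averages and 0.71 with linear averages. The 59 were called on the log scale, so their unchanged signs are no test of the scale. The calls themselves did change with it. In limma on bird differences 62 gene models were called higher with log2 averages and 90 with linear averages. These calls included 44 and 50 of the 59. Of the 5 lower gene models, 0 were called with either average.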

How the data were processed

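The authors deposited raw counts of reads per gene model, 1 column per library, with no normalization. Per the labels, mRNA libraries were made with a stranded kit and sequenced as 75 bp reads. Named in the submitters' processing notes are STAR 2.7.2b, Subread 1.6.0, Trimmomatic 0.33, bcl2fastq and featureCounts. Genome, annotation and strand setting were not given in the sources used here, so overlapping or antisense gene models cannot be told apart.

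Left and right counts were summed per bird and group where both sides had a library. Over the 22 left-right pairs the chi-square per gene was 4.36 to 140, where 1 library deposited more than once gives about 1 or less. Tests used edgeR 4.0.16 under R 4.3.3 on these sums (quasi-likelihood, robust, TMM, default expression filter), with group and bird in 1 fit over 4 groups and the contrast (R2 + R6)/2 minus the mean of both R4 parts. P-values were adjusted by Benjamini-Hochberg over all tested gene models and called below 0.05. The SE given with a log2 fold is its size divided by the square root of the test's F statistic. It was derived from the test and not estimated separately. CPM uses TMM-scaled totals, and log2 CPM a prior count of 2. The fit was run on simulated counts, where 72 of 100 gene models changed by a log2 fold of 0.5 in size were called. Of those changed by 1, 94 of 100 were called, and there were 9 false calls. The simulated spread was equal in whole feathers and dissected parts, so the run does not cover unequal spread. The common biological coefficient of variation was 16.2%.

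Profiles are paired by the animal identifier in the labels. Deviations of whole and dissected tissue from their group means correlated across gene models with r of 0.50 to 0.73 within 5 birds and -0.28 to -0.07 between different birds. Deviations from a group mean cancel over its birds. With positive values within birds, those between birds are therefore pushed negative, and their sign is no separate result. RNA was extracted in 3 batches, A and B, then C, D and E, then F and G with the R4 apigmented library of E, so the bird term takes up batch except for that library.

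The contrast, the lists and the rule for named gene models were chosen with earlier results of these data known. That rule took, among called gene models with 1 CPM or more on average and a shared direction in 5 birds and both colours, the 2 largest folds each way. The alternatives were DESeq2 1.42.0, limma 3.58.1 with voom sample weights or on bird differences, other size factors and filters, no block, single sides, single batches, and birds or single profiles left out. No column was left unused.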

Additional observations from a re-analysis of the deposited data

Results flagged for a closer look

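Within a group of 4 to 10 values, a highest or lowest bird was picked out when its gap to the nearest other bird was large against the range of the group. Such a bird was found in 7 of 63 groups of values, where independent groups of normally distributed values would give 3.15 by chance. Levels of gene models within a group entered as linear CPM, which need not be normally distributed. The groups of values also share birds, and g1956 in bird A accounts for 3 of the 7. The 7 therefore cannot be read as an excess. That gene model had 175 CPM in the R2 of bird A, with the next bird at 51.3 CPM. In the R4 pigmented part bird A had 57.3 CPM of it, with the next bird at 14.6 CPM. In the R4 apigmented part bird A had 75.2 CPM, with the next bird at 16.8 CPM. Bird A was thus high in both whole and dissected tissue, and its difference between them, 0.98, was the smallest of the 5 birds.

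For g13199, R2 minus the R4 pigmented part was -0.247 log2 CPM in bird B, with the next bird at -0.0948. The SD over gene models between a profile and the other birds of its group was 0.826 in the R4 pigmented part of bird B, with the next bird at 0.562. In R6 this distance was 0.533 in bird E, with the next bird at 0.442. The SD between left and right feather was 0.639 in the R2 of bird G, with the next bird at 0.481.

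The difference between whole and dissected tissue itself differed between the white pair and the dark pair for 21 of 15844 gene models (0.133%) in edgeR. None of them was among the 64 (0.404%) called with colours averaged. At these small shares hardly any overlap would arise by chance, so its absence is no result.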

How the results depend on the processing

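In all 25 alternatives every tested member of the 59 higher gene models stayed above 0, with medians of 0.67 to 0.90. The alternatives reuse libraries that chose the 59 as higher, so this direction describes the set and does not test it. The 5 lower gene models likewise stayed below 0, but their calls were less stable. Of these, 0 were called without the replicate block, without bird A, D or G, or in left or right feathers alone. The same held in single batches and in both limma fits on bird differences. The number of calls varied widely. From 64 it moved to 421 with limma-voom sample weights, 145 with DESeq2, 99 with limma on bird differences and colours averaged as linear CPM (the same limma fit with log2 averages gave 69), 18 in right feathers alone, 17 without the replicate block, 11 in batch 3 alone, and 0 in batch 1 alone (309 at an unadjusted p below 0.05) and in batch 2 alone (852 at that p). Single batches hold fewer birds. Leaving out birds in turn gave 32 (without D) to 65 (without C), with 41 without G. Without the replicate block, 17 of the 59 higher calls remained. The remaining 15 alternatives stayed within 1.5 times 64. In 23 of 23 alternatives with calls most were higher, 83.1% of them when only means of 5 CPM and above were kept, 77.2% with DESeq2 and 74.1% with voom weights.

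The 21 calls between the white and the dark pair were 715 with voom weights, 131 with DESeq2, 8 in left and 1 in right feathers, 1 in the 5 birds with all groups, 8 without the R4 apigmented profile of bird E, 218 without the R4 pigmented profile of bird B, 3 without the replicate block, 0 in batches 1 and 3 (149 and 668 at an unadjusted p below 0.05) and 8 in batch 2. Leaving out birds in turn gave 2 to 291. Their balance changed too, with signed folds larger in the white pair for 327 and smaller for 388 with voom weights, and for 78 and 53 with DESeq2. The cause was not tested.

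Outside single batches, g16721 kept its call in 21 of 21 alternatives, with folds of 2.03 to 2.58 and adjusted p-values of 5.23e-13 to 0.0168. By contrast, g1956 kept it in 10 of 22 (1.43 to 2.22), g5075 in 8 of 22 (-0.36 to -0.23) and g13199 in 6 of 22 (-0.26 to -0.16). In single batches no call of the 4 held, with adjusted p-values from 0.0693 upward. No fold of the 4 changed sign, but the alternatives reuse libraries that chose the 4 by direction. The distance from the group centre in the dark pair, -0.0347, ran from -0.081 to 0.05 when birds were left out, with the positive value without bird B, and was 0.036 without its R4 pigmented profile.

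The precision is limited by 5 birds with all groups and, for gene models near 1 CPM by few counts per profile.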

Other observations

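When limma-voom estimated a weight per profile, whole feathers received 0.643 to 2.77 (median 1.75, 13 profiles) and dissected parts 0.107 to 1.92 (median 0.606, 13 profiles). The fit with these weights gave the highest count of calls, 421 (2.66%), of which 312 were higher in whole feathers and 59 were shared with the 59 higher calls of edgeR. The weights were estimated from the same profiles that were then tested.

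Gene models called between R2 and R6 were more often affected by the scale of averaging than the table as a whole. The sign of their difference between whole and dissected tissue changed with the scale for 13 of 200 (6.5%), against 397 of 15844 (2.51%). Log and linear averages of R2 and R6 differ more the further these groups lie apart, and the 200 were chosen for lying apart. The larger share therefore follows at least in part from the choice. No test was made of this difference.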
